A study of Homo sapiens with 30 samples.

Results

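The messenger RNA response to removal of the MYC protein was measured in DTMYC cells, a derivative of the human rhabdoid tumour line G401, and is described here across all protein-coding genes of the RNA-seq table. The members are 6 of the 30 samples of the series: 3 libraries of DTMYC cells kept for 24 h in 500 nM dTAG47 and 3 of DTMYC cells kept for 24 h in the solvent DMSO. They were chosen by their labels alone, and 12594 of its 18132 entries had enough reads in these 6 libraries to be tested. All 6 carry the same engineered changes, namely a lentivirus that supplies MYC with an HA-FKBP12F36V module at its N-terminus and a CRISPR-Cas9 removal of endogenous MYC, so the comparison is between a virus-borne MYC with and without its degrader; the MYC protein itself was not measured in these files. Whether the engineered line is a single clone is not given in the sources used here, and neither is the promoter of the lentivirus. Parental G401 cells, which lack the module, were treated in the same way (3 libraries with dTAG47 and 3 in DMSO) and serve below as the control for the compound. The labels do not say that replicates were separate cultures, so the p-values measure the spread between these libraries, which may be technical.

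MYC is a transcription factor of the basic helix-loop-helix leucine zipper class. It binds DNA with its partner MAX, most tightly at the E-box CACGTG, and it is best known for driving genes of ribosome production, nucleotide and amino acid supply and cell growth, while many genes of adhesion, matrix and differentiation are high where MYC is low. The compound dTAG47 links the FKBP12F36V module to the cereblon ubiquitin ligase, which leads to breakdown of the fused protein while the mRNA that encodes it is left in place. G401 comes from a malignant rhabdoid tumour of the kidney, a tumour type defined by loss of the SWI/SNF subunit SMARCB1, whose mRNA was not analysed here.

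The tested libraries held between 27854207 and 35152287 counts in genes. Their log2 CPM values (CPM being counts scaled to a common library size with edgeR's effective totals) correlated at 0.991 or more between all pairs, across genes, and the biological coefficient of variation was 0.0503. The main axis of variation held 50.8% of the variance and separated the 3 dTAG47 from the 3 DMSO libraries. MYC mRNA itself did not pass the test: MYC had 1482, 1404 and 1341 CPM in the dTAG47 libraries, against 1354, 1388 and 1434 CPM in the DMSO libraries. These reads come from the degradable transgene as far as the labels tell, and the groups overlapped, with a log2 change of 0.02 ± 0.05 (± SE, edgeR adjusted p = 0.7996). MAX, which was not removed, had 42.7, 40.5 and 42.6 CPM in the dTAG47 libraries, against 51.2, 53.8 and 52.7 CPM in the DMSO libraries, groups that did not overlap, and a log2 change of -0.33 ± 0.05 (edgeR adjusted p = 2.64e-04). Of markers of other cell types, the leukocyte gene PTPRC and the kidney tubule genes LRP2 and UMOD had 0 counts in all 6 libraries, while the epithelial keratin KRT8 averaged 4704 ± 288 CPM with dTAG47 and 4188 ± 182 CPM in DMSO (mean ± SD, n = 3 each, as in all such values below). Of 15 kidney epithelial markers 8 were tested and 2 of them rose, KRT8 with a log2 change of 0.17 and the kidney lineage factor PAX8, a low gene, with one of 1.02 (edgeR adjusted p = 0.0156 and 0.016); the list's summed level ran from 5797 to 6596 CPM with dTAG47 and from 5261 to 5812 CPM in DMSO, ranges that overlap. Of 9 endothelial markers 3 were tested and VWF, the von Willebrand factor, rose with a log2 change of 0.66 (edgeR adjusted p = 0.0108), and none of the 5 tested haematopoietic and neuronal markers was called. All 7 tested members of a list of 11 fibroblast and mesenchymal markers rose, and their summed level ran from 5183 to 5454 CPM with dTAG47 and from 4511 to 4726 CPM in DMSO. With the spread estimated over all 12 RNA-seq libraries of both lines 0 members of these marker lists rose. The mesenchymal markers overlap the matrix genes described below, and in bulk RNA more cells of a type and more RNA per cell cannot be told apart; the part of such cells in the matrix results was not tested.

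With dTAG47 the mRNA of many genes moved, mostly by little. In DTMYC cells 2084 genes rose and 2509 fell at an edgeR adjusted p under 0.05, which is 16.5% and 19.9% of the genes tested, or 36.5% in either direction. For 47.1% of tested genes the dTAG47 libraries all lay above, or all below, the DMSO libraries. The median log2 change was 0.30 among risen genes and -0.28 among fallen genes, and the median of all tested genes was 0.003. A change of at least 1.2-fold was reached by 1267 risen and 1381 fallen genes, of at least 1.5-fold by 264 and 190, of at least 2-fold by 56 and 26, and of at least 3-fold by 6 and 5. Together the fallen genes made up 295422 CPM with dTAG47 and 355939 CPM in DMSO, and the risen genes 193537 CPM with dTAG47 and 162015 CPM in DMSO. CPM values are shares of each library, so a change in RNA content per cell would not show in them. Without dTAG47 replicate 2 the counts were 1369 risen and 1847 fallen genes, and with the spread estimated over all 12 RNA-seq libraries they were 572 and 595.

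**Figure D1:**
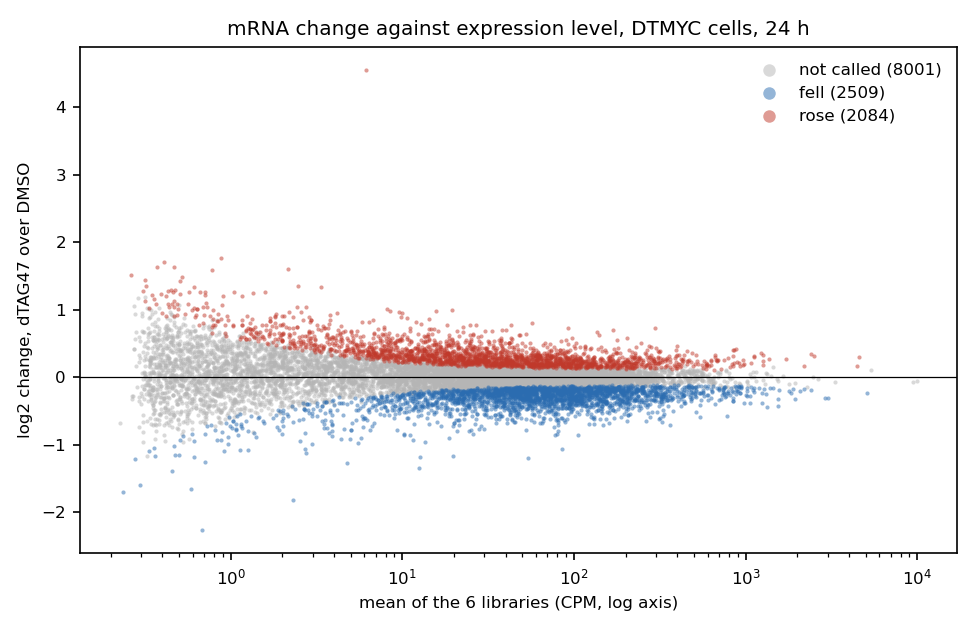
Log2 change of every tested gene, dTAG47 over DMSO, against its mean level over the 6 libraries in CPM on a log axis; red points rose, blue points fell and grey points did not pass the test. The called genes lie in a narrow band, 9.88% of them at or beyond 1.5-fold, and the isolated red point near a log2 change of 4.55 is TIMM23, which is described below as uncertain.

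The direction of the response varied with expression level. Tested genes were split into quintiles by mean log2 CPM, which follows transcript length as well as abundance, with a median of 1.04, 10.5, 31.7, 68.1 and 178 CPM from the lowest to the highest quintile. The share that fell was 4.25%, 13.1%, 21.2%, 27.4% and 33.6% in that order, so falls were commonest among the most abundant mRNAs. Risen genes made up 9.77%, 23.4%, 18.5%, 14.6% and 16.4%, with their largest share in the second quintile. In all, 49.98% of genes of the highest quintile were called and 14.02% of the lowest. The median log2 change over all genes of a quintile, called or not, was 0.10 in the lowest, 0.06 in the second, -0.04 in the fourth and -0.05 in the highest quintile.

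Among called genes the sizes ran the other way. Risen genes had a median log2 change of 0.72 in the lowest quintile and 0.22 in the highest, and fallen genes -0.70 and -0.25. Of the 454 called genes that moved at least 1.5-fold, 248 were in the lowest quintile and 26 in the highest. The standard error sets what can be called. Its median was 0.242 in the lowest quintile and 0.050 in the highest on the log2 scale. A small change among low genes was therefore not detectable at this depth. In the lowest decile all 74 risen and all 34 fallen genes had moved at least 1.5-fold. The sizes of called genes therefore cannot be compared between levels apart from this limit. Between the lowest and the highest quintile the large movers also differed in direction, with 175 risen and 73 fallen in the lowest quintile but 5 risen and 21 fallen in the highest. Without dTAG47 replicate 2 the called share of the lowest quintile was 7.94%, and by DESeq2 it was 8.02%.

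**Figure D2:**
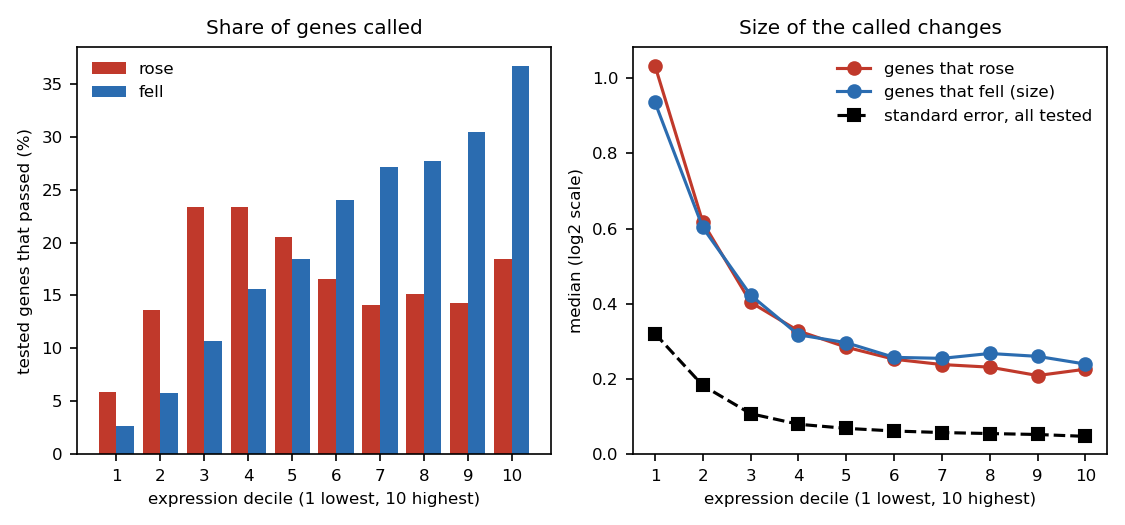
Left, share of tested genes that rose (red) or fell (blue) in each decile of genes by mean level, from 1 (lowest) to 10 (highest); right, the median size of the called changes and the median standard error of all genes, on the log2 scale. The fallen share climbs to 36.7% in the highest decile while the size of the called changes declines, to medians of 0.23 for risen and 0.24 for fallen genes there.

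Among the most abundant genes the largest falls were those of RAC3, MYBBP1A and LAMC3. RAC3 had 77.6, 76.03 and 71.999 CPM in the dTAG47 libraries, against 138, 129 and 143 CPM in the DMSO libraries, with a log2 change of -0.86 ± 0.06 (edgeR adjusted p = 2.23e-07). MYBBP1A, a nucleolar protein that binds the MYB oncoprotein, had 289, 276 and 266 CPM in the dTAG47 libraries, against 459, 425 and 469 CPM in the DMSO libraries, a log2 change of -0.70 ± 0.05 (edgeR adjusted p = 4.44e-07). LAMC3, a laminin gamma chain of basement membranes, had 117, 113 and 107 CPM in the dTAG47 libraries, against 192, 171 and 187 CPM in the DMSO libraries, a log2 change of -0.70 ± 0.06 (edgeR adjusted p = 7.17e-07). Genes named as the largest changes of a quintile, here and below, were taken only where the groups did not overlap. The largest rises at this level were those of MAP1A, LGALS1 and LPP. MAP1A, a microtubule-associated protein, had 374, 377 and 364 CPM in the dTAG47 libraries, against 227, 219 and 229 CPM in the DMSO libraries, with a log2 change of 0.72 ± 0.04 (edgeR adjusted p = 1.07e-07). LGALS1, which encodes the secreted lectin galectin-1, had 217, 216 and 197 CPM in the dTAG47 libraries, against 130.4, 118 and 139 CPM in the DMSO libraries, a log2 change of 0.70 ± 0.06 (edgeR adjusted p = 1.49e-06). LPP, a focal adhesion protein, had 156, 161 and 185 CPM in the dTAG47 libraries, against 103, 103 and 109 CPM in the DMSO libraries, a log2 change of 0.67 ± 0.06 (edgeR adjusted p = 2.09e-06). LPP lost its call with the spread estimated over all 12 RNA-seq libraries (edgeR adjusted p = 0.154). The other genes named at this level kept theirs.

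In the fourth quintile the MATK and NEFH mRNAs fell more than 2-fold on average. MATK, a kinase that restrains SRC-family kinases, had 33.2, 34.1 and 31.4 CPM in the dTAG47 libraries, against 77.6, 67.5 and 80.4 CPM in the DMSO libraries, a log2 change of -1.19 ± 0.07 (edgeR adjusted p = 8.11e-08). NEFH, the heavy neurofilament chain, had 58.9, 56.1 and 51.1 CPM in the dTAG47 libraries, against 113, 118 and 117 CPM in the DMSO libraries, a log2 change of -1.07 ± 0.06 (edgeR adjusted p = 8.11e-08). YDJC averaged 54.7 ± 2.69 CPM with dTAG47 and 99.4 ± 9.14 CPM in DMSO, a log2 change of -0.86. The largest rises of this quintile were CNTNAP1, a contactin-associated membrane protein, at 72.7 ± 3.86 CPM with dTAG47 and 41.7 ± 1.404 CPM in DMSO, MAGED2, a member of the MAGE family, at 116 ± 4.79 CPM with dTAG47 and 69.96 ± 2.51 CPM in DMSO, and ECM1, a secreted matrix protein, at 63.6 ± 5.43 CPM with dTAG47 and 40.96 ± 1.76 CPM in DMSO. Their log2 changes were 0.80, 0.73 and 0.64. In the third quintile the largest falls were of TEX15, a germ-cell gene, HES6, a helix-loop-helix factor, and NTHL1, a glycosylase of base excision repair, with log2 changes of -0.84, -0.80 and -0.80. The rises there were led by PDGFB, a growth factor of mesenchymal cells (31.04 to 36.4 CPM with dTAG47 and 19.3 to 20.6 CPM in DMSO), UPK3B, a uroplakin (52.8 to 57.3 CPM with dTAG47 and 30.6 to 33.1 CPM in DMSO), and GMNC, a geminin relative needed for multiciliated cells (30.2 to 32.5 CPM with dTAG47 and 15.9 to 21.3 CPM in DMSO).

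The largest changes named in the second quintile follow, where the median standard error was 0.091. DDN, which encodes dendrin, a protein of dendrites and kidney podocytes, had 7.09, 7.199 and 6.91 CPM in the dTAG47 libraries, against 18.01, 17.3 and 18.6 CPM in the DMSO libraries, a log2 change of -1.34 ± 0.08 (edgeR adjusted p = 8.11e-08). TERT, the catalytic subunit of telomerase, had 7.61, 7.44 and 8.396 CPM in the dTAG47 libraries, against 19.6, 16.1 and 17.4 CPM in the DMSO libraries, a log2 change of -1.18 ± 0.09 (edgeR adjusted p = 7.17e-07). MMP17, a membrane-bound metalloprotease, had 2.91, 3.09 and 2.33 CPM in the dTAG47 libraries, against 6.83, 6.32 and 7.02 CPM in the DMSO libraries, a log2 change of -1.27 ± 0.12 (edgeR adjusted p = 4.16e-06). All 3 fell more than 2-fold. Against them APOLD1, an apolipoprotein L domain protein of endothelium, PLCB2, a phospholipase C of G-protein signalling, and KIAA0319, a neuronal membrane protein, rose with log2 changes of 1.00, 1.00 and 0.98. PLCB2, for example, had 27.9, 25.5 and 24.4 CPM in the dTAG47 libraries, against 14.5, 12.1 and 12.3 CPM in the DMSO libraries.

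In the lowest quintile ACTL8, an actin-like gene best known from testis, had 1.003, 1.04 and 1.02 CPM in the dTAG47 libraries, against 3.24, 3.26 and 4.29 CPM in the DMSO libraries, a log2 change of -1.82 ± 0.18 (edgeR adjusted p = 4.34e-06). DOC2A, a calcium sensor of vesicle release, and PHLDA2, an imprinted growth-restraining gene, fell with log2 changes of -1.12 and -1.08, and PHLDA2 spread widely in DMSO (0.773 to 0.847 CPM with dTAG47 and 1.09 to 2.22 CPM in DMSO). TMEM173, which encodes STING, the adaptor of cytosolic DNA sensing, had 3.15, 3.21 and 3.35 CPM in the dTAG47 libraries, against 1.205, 1.05 and 0.929 CPM in the DMSO libraries, a log2 change of 1.61 ± 0.17 (edgeR adjusted p = 6.68e-06). SULT1A1, a phenol sulfotransferase, had 3.22, 4.13 and 3.28 CPM in the dTAG47 libraries, against 1.39, 1.44 and 1.36 CPM in the DMSO libraries, but it shares sequence with SULT1A2 and SULT1A3 and its reads are uncertain. TIMM23, a subunit of the mitochondrial inner membrane import channel, met the rule for naming with 0.8301, 16.7 and 17.9 CPM in the dTAG47 libraries, against 0.525, 0.351 and 0.609 CPM in the DMSO libraries. Replicate 1 of dTAG47 was near DMSO and the others far above it. Raw counts of TIMM23 split in the same way in the parental cells, at 1267, 24 and 596 counts with dTAG47 and 886, 12 and 844 counts in DMSO, and the gene has the near copy TIMM23B, so its change is not taken as a response.

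**Figure D3:**
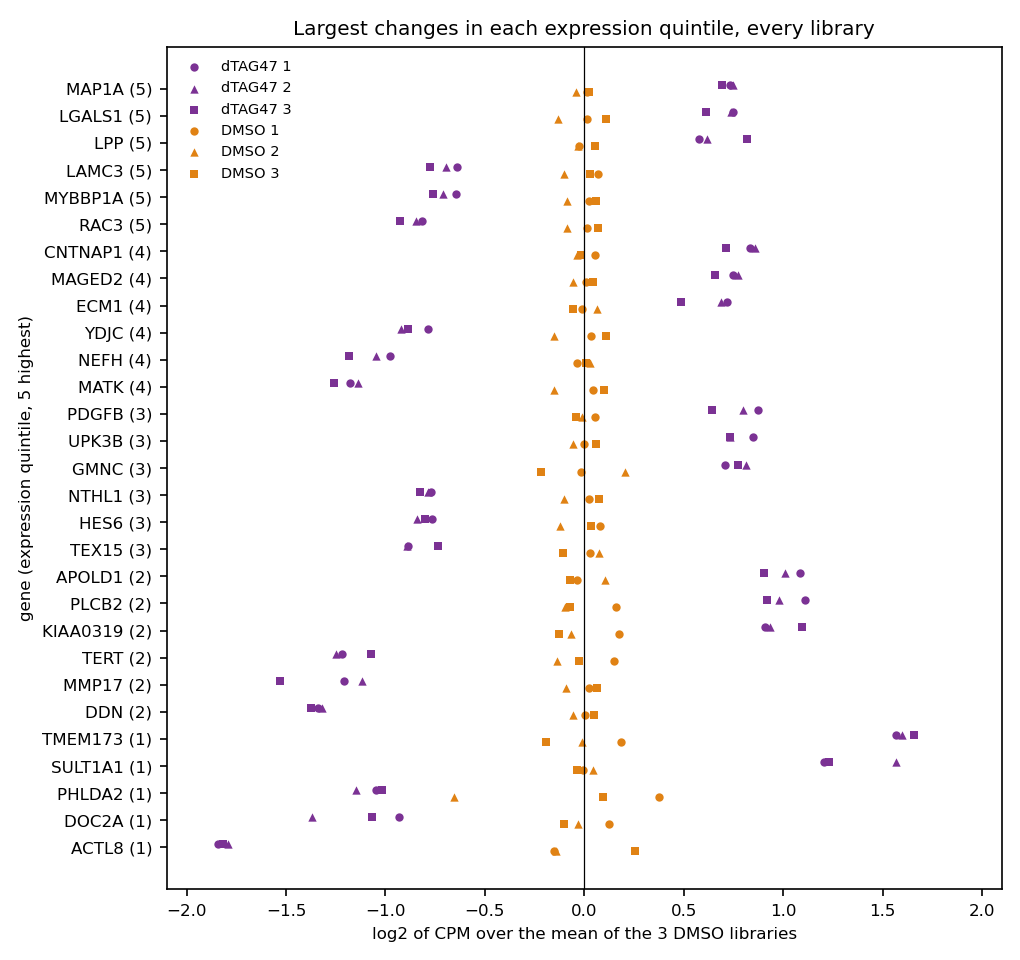
Every library's CPM over the mean of the 3 DMSO libraries, on a log2 axis, for the genes with the largest falls and rises in each expression quintile (5 is the highest), without TIMM23; purple dTAG47 points are drawn above orange DMSO points. Genes were taken only where the groups did not overlap, so the gap between groups was set by the choice. The spread within DMSO is widest for low genes such as PHLDA2, at 1.09 to 2.22 CPM.

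The response was then read over functional lists. They are described by how many of their tested members rose or fell, beside 16.5% risen and 19.9% fallen among all tested genes. Lists were not matched for level, and 4.25% of tested genes fell in the lowest expression quintile and 33.6% in the highest. Values in brackets after a gene, and those given after rose, fell or at without a unit, are log2 changes, dTAG47 over DMSO.

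Genes of RNA processing and ribosomes fell together. In the ribosome biogenesis list 56 of 57 members fell and 0 rose, with a median log2 change of -0.40. IMP4, a protein of the U3 particle that processes pre-rRNA, had 105, 97.2 and 95.8 CPM in the dTAG47 libraries, against 157, 155 and 169.6 CPM in the DMSO libraries, and POLR1B, a subunit of RNA polymerase I, had 99.4, 104 and 104 CPM in the dTAG47 libraries, against 155, 160.1 and 154 CPM in the DMSO libraries. RRP1B and GNL3, which is nucleostemin, fell with log2 changes of -0.57 and -0.56. Of the proteins of the finished cytosolic ribosome 64 of 77 fell, by a smaller median of -0.20; RPL14 averaged 737 ± 8.498 CPM with dTAG47 and 944 ± 44.6 CPM in DMSO and RPL27 298 ± 3.83 CPM with dTAG47 and 363 ± 21.2 CPM in DMSO. In the mitochondrial ribosome 44 of 74 fell, among them MRPS27 (-0.37), MRPS26 (-0.51), MRPL36 (-0.56) and MRPL12 (-0.56). No member of these 3 lists rose. With the spread taken over all 12 libraries 29, 1 and 13 members fell, and the count for cytosolic ribosomal proteins was 38 without dTAG47 replicate 2, 38 without DMSO replicate 3 and 40 without dTAG47 replicate 1.

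The fall reached the enzymes that modify and unwind RNA. Of 52 tRNA modification enzymes 30 fell and 0 rose (median -0.25). TRMT61A, the catalytic subunit that methylates adenosine in the tRNA T loop, had 38.2, 33.1 and 33.5 CPM in the dTAG47 libraries, against 55.8, 50.7 and 59.1 CPM in the DMSO libraries, a log2 change of -0.66 ± 0.07 (edgeR adjusted p = 7.57e-06). PUS7, a pseudouridine synthase, DUS3L, a dihydrouridine synthase, and GTPBP3, which modifies mitochondrial tRNA, fell with log2 changes of -0.49, -0.54 and -0.49. Among RNA helicases 28 of 46 fell, led by the nucleolar helicase DDX21 at 625 ± 20.4 CPM with dTAG47 and 929 ± 53.2 CPM in DMSO and by DHX37 (-0.46) and DHX33 (-0.39). The 1 helicase that rose was DDX58, which encodes the viral RNA sensor RIG-I, with 18.1, 17.4 and 17.8 CPM in the dTAG47 libraries, against 10.2, 12.4 and 9.84 CPM in the DMSO libraries. Of the METTL and PRMT methyltransferases 18 of 32 fell and 3 rose. PRMT1, the main enzyme of asymmetric arginine dimethylation, had 284, 272 and 264 CPM in the dTAG47 libraries, against 405, 351 and 440.4 CPM in the DMSO libraries, while PRMT3, PRMT6 and CARM1 fell with log2 changes of -0.48, -0.33 and -0.37.

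Splicing and nuclear pore genes moved the same way with smaller steps, and RNA decay was nearer to the background. Of 71 splicing factors 36 fell and 0 rose (median -0.15), with HNRNPF (-0.34), PRPF19 (-0.33), SF3A3 (-0.31) and SNRPA1 (-0.32) the best supported. Of 30 nucleoporins 13 fell and 0 rose, among them NUP93 (-0.29), NUP155 (-0.28), NUP188 (-0.28) and NUP160 (-0.26). In mRNA decay and the exosome 12 of 46 fell (26.1%) and 2 rose, beside 27.4% fallen among all tested genes of the fourth expression quintile. EXOSC5, a subunit of the RNA exosome ring, had 33.4, 29.8 and 33.2 CPM in the dTAG47 libraries, against 52.1, 45.2 and 50.02 CPM in the DMSO libraries, and EXOSC2, EXOSC6 and LSM7 fell with log2 changes of -0.44, -0.27 and -0.33. With the spread over all 12 libraries the fallen counts were 10 for tRNA modification, 11 for helicases, 4 for the methyltransferases, 4 for splicing, 0 for nuclear pores and 2 for decay. Splicing factors numbered 22 fallen without dTAG47 replicate 2, and adjusting for GC content and length gave 56 fallen splicing factors, 25 nucleoporins and 26 decay factors.

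General transcription and chromatin genes were nearer to the background. Of 75 genes of RNA polymerase II, Mediator and TFIID 17 fell and 6 rose; TAF4B, a TFIID subunit, had 28.7, 32.7 and 32.1 CPM in the dTAG47 libraries, against 51.1, 48.5 and 50.5 CPM in the DMSO libraries, and POLR2H, a subunit shared by the RNA polymerases, fell with a log2 change of -0.44. Histone lysine methyltransferases and demethylases gave 7 risen and 12 fallen of 59, among them SETD7 (-0.39) and SETD6 (-0.47). Deacetylases and acetyltransferases gave 7 and 7 of 38, and all 3 genes of the p160 nuclear receptor coactivators rose, NCOA3 by 0.30, NCOA1 by 0.28 and NCOA2 by 0.23. In excision and mismatch repair 11 of 39 fell, among them NTHL1, NEIL2 (-0.45) and UNG (-0.36), all of them glycosylases. Recombination and Fanconi repair gave 4 risen and 7 fallen of 44. Of 17 telomerase and shelterin genes 5 fell, and beside TERT these included the H/ACA particle genes NAF1 (-0.43) and GAR1 (-0.35). None of the p160 coactivator genes kept its call with the spread over all 12 libraries. Risen and fallen counts were then 2 and 2 for RNA polymerase II, Mediator and TFIID and 1 and 2 for histone lysine enzymes. They were 0 and 1 for deacetylases and acetyltransferases, 0 and 3 for excision repair, 0 and 1 for recombination and 1 and 3 for telomerase.

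Small-molecule metabolism split. Iron-sulfur cluster and haem genes fell in 18 of 32 cases, with TFRC, the transferrin receptor, at 532 ± 20.7 CPM with dTAG47 and 670.1 ± 29.5 CPM in DMSO, and CIAO1, NUBP2 and UROD at log2 changes of -0.33, -0.37 and -0.36. Of 44 mitochondrial carriers 15 fell and 5 rose. SLC25A32, linked to mitochondrial folate, had 50.5, 52.8 and 54.4 CPM in the dTAG47 libraries, against 75.7, 90.7 and 74.2 CPM in the DMSO libraries, a log2 change of -0.61 ± 0.07 (edgeR adjusted p = 1.71e-05). Amino acid transporters fell in 12 and rose in 6 of 29 cases. SLC7A5, the leucine carrier LAT1, had 461, 439.9 and 405 CPM in the dTAG47 libraries, against 665, 639 and 662 CPM in the DMSO libraries; SLC7A1, the arginine carrier, and SLC6A6, the taurine carrier, fell with log2 changes of -0.33 and -0.33. Of 28 hypoxia-response genes 10 fell, HK2 by -0.52, CA12 by -0.48 and PFKFB3 by -0.48, while the collagen prolyl hydroxylase gene P4HA2 was among the 6 that rose (0.51). Phospholipid synthesis had 10 fallen and 5 risen of 33, PTDSS1 with 176, 178 and 174 CPM in the dTAG47 libraries, against 242, 234 and 241 CPM in the DMSO libraries.

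Peroxisomal genes rose in 11 and fell in 3 of 37 cases, catalase (CAT, 0.30) and ACOX2 (0.50) upward and the import receptor PEX5 (-0.39) downward. Glutathione and NRF2 genes gave 10 risen and 6 fallen of 38, with GPX8 at 43.4 ± 3.35 CPM with dTAG47 and 29.6 ± 1.697 CPM in DMSO, NQO1 up by 0.29 and PRDX4 at -0.33. Sphingolipid genes (8 and 7 of 34), fatty acid oxidation (4 and 1 of 27) and other solute carriers (22 and 25 of 123) moved in both directions. Genes of the proteasome list, which holds assembly chaperones beside subunits, rose in 0 and fell in 6 of 45 cases. The fallen share of 13.3% was below the 19.9% of all tested genes. Among the fallen were the assembly chaperones PSMG1 (-0.41) and PSMG4 (-0.53). With the spread over all 12 libraries the fallen counts were 3 for iron-sulfur and haem, 4 for carriers, 6 for amino acid transporters and 4 for hypoxia, and 2 peroxisomal genes rose. Without DMSO replicate 1, 6 peroxisomal genes rose.

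**Figure D4:**
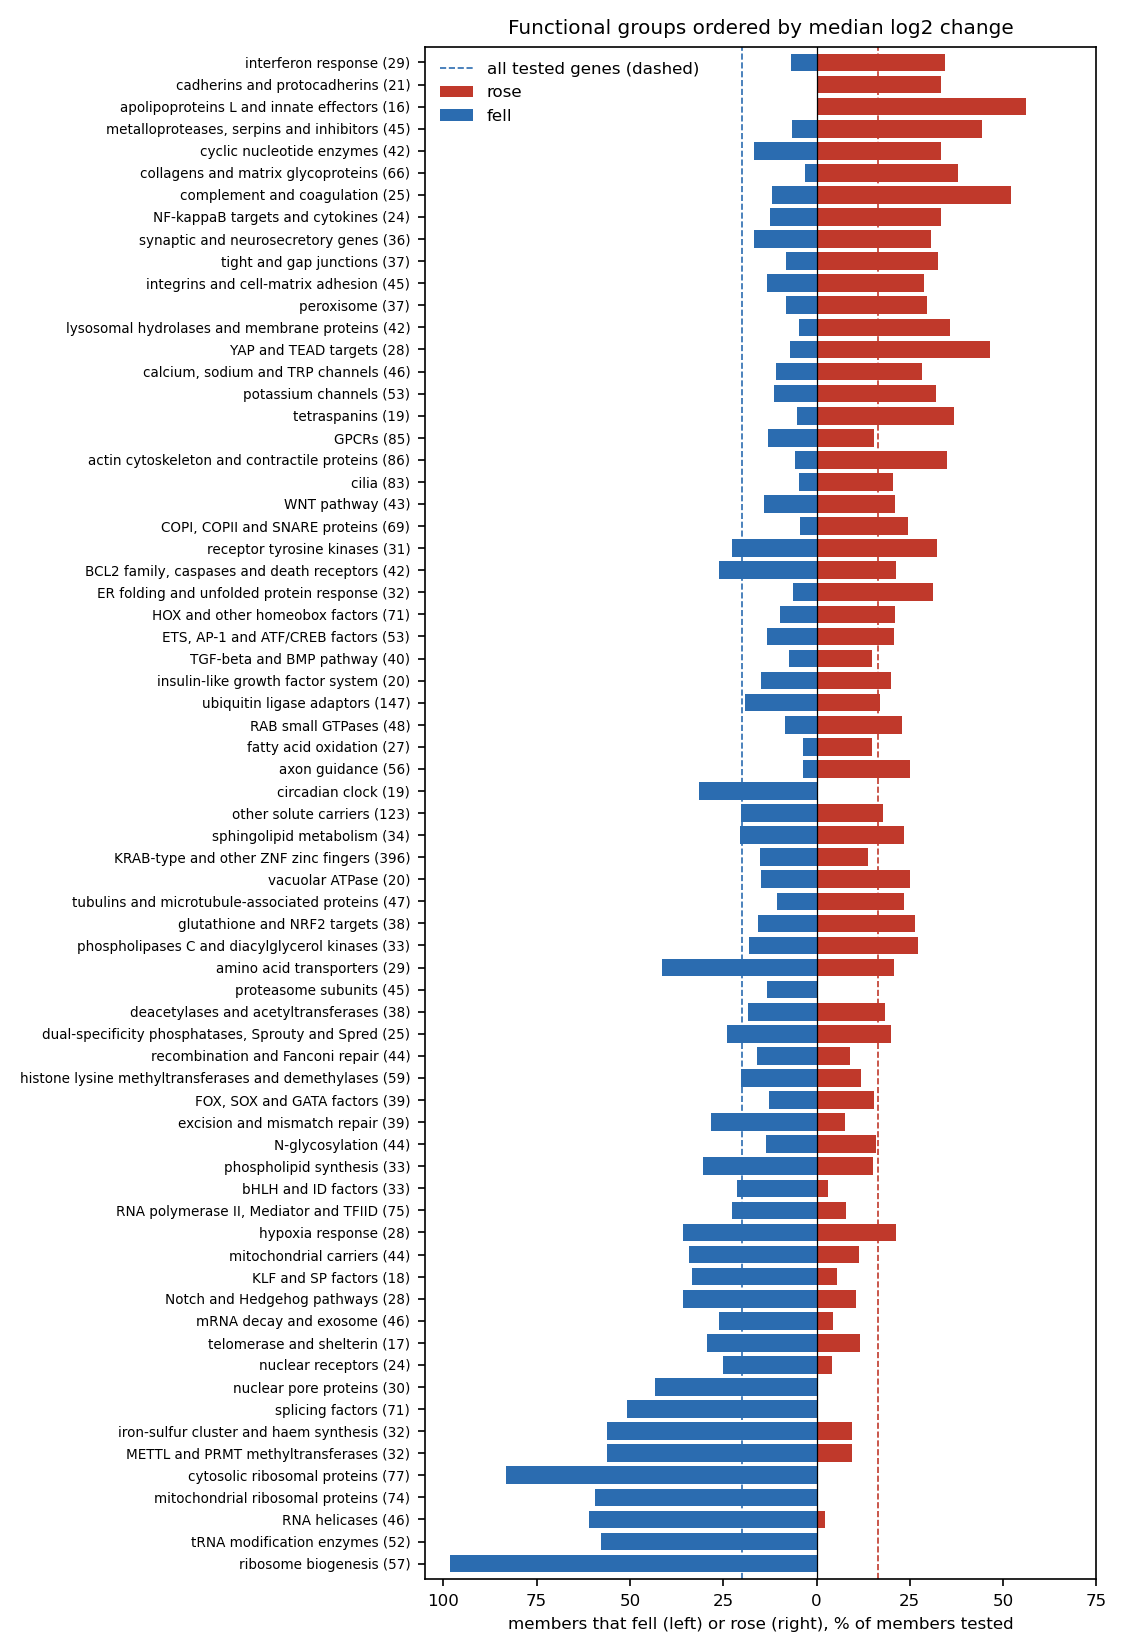
Share of each functional list's tested members that fell (blue, left) or rose (red, right), in percent, with the number tested in brackets and lists ordered by median log2 change, highest at the top; dashed lines mark all tested genes. Ribosome biogenesis lies lowest, with 56 of 57 fallen, and matrix, protease, complement and innate immune lists have red bars beyond the dashed line.

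Genes of the matrix and protease lists rose more often than they fell. Of 66 collagens and matrix glycoproteins 25 rose and 2 fell (median 0.18). COL1A2, a chain of fibrillar collagen type I, had 1404, 1419 and 1329 CPM in the dTAG47 libraries, against 1113, 1078 and 1046 CPM in the DMSO libraries, a log2 change of 0.36 ± 0.04 (edgeR adjusted p = 2.32e-05), and LAMB2, a laminin beta chain, had 304, 299 and 267 CPM in the dTAG47 libraries, against 212, 199.6 and 200.005 CPM in the DMSO libraries. The groups did not overlap for either. The members that fell were LAMC3 and COL27A1 (-0.50). Among metalloproteases, serpins and their inhibitors 20 of 45 rose and 3 fell (median 0.23); SERPINB9, a granzyme B inhibitor, had 175, 171 and 162 CPM in the dTAG47 libraries, against 107, 119.8 and 104 CPM in the DMSO libraries, and ADAMTSL4, an ADAMTS-like matrix protein, averaged 58.3 ± 2.59 CPM with dTAG47 and 37.9 ± 3.13 CPM in DMSO. MMP17 is one that fell. With the spread over all 12 libraries 13 matrix genes and 9 of the protease list rose.

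Adhesion and the cytoskeleton followed. Of 86 actin cytoskeleton and contractile genes 30 rose and 5 fell. TAGLN, an actin-binding protein of smooth muscle, had 122, 119 and 109 CPM in the dTAG47 libraries, against 79.8, 73.96 and 80.1 CPM in the DMSO libraries, MYL12A, a myosin regulatory light chain, averaged 195 ± 5.19 CPM with dTAG47 and 146 ± 5.56 CPM in DMSO, and the tropomyosin TPM4 and LASP1 rose by 0.39 and 0.39. YAP and TEAD targets rose in 13 of 28 cases and fell in 2, with TNNT1 (0.41), CRIM1 (0.29), IGFBP3 (0.56) and the factor TEAD1 itself (0.29) the best supported. Integrins and cell-matrix adhesion gave 13 risen and 6 fallen of 45. The paralogous parvins went opposite ways: PARVA had 58.2, 59.6 and 57.3 CPM in the dTAG47 libraries, against 40.3, 40.6 and 42.04 CPM in the DMSO libraries, and PARVB had 65.6, 63.003 and 64.3 CPM in the dTAG47 libraries, against 93.6, 87.9 and 96.1 CPM in the DMSO libraries. LIMS2, a PINCH adaptor of the same integrin-linked complex, averaged 12.7 ± 0.684 CPM with dTAG47 and 6.49 ± 0.384 CPM in DMSO, and VCL, which encodes vinculin, rose by 0.33. Cadherins and protocadherins rose in 7 of 21 cases and none fell, CDH4 by 0.33 and the giant cadherin FAT1 by 0.29; most of the others were gamma protocadherins such as PCDHGA10 and PCDHGB7, which share exons, so that their reads cannot be assigned with certainty. Tight and gap junctions gave 12 risen and 3 fallen of 37, and tetraspanins 7 and 1 of 19, with CD82 at 13.7 ± 0.928 CPM with dTAG47 and 7.49 ± 0.305 CPM in DMSO and CD81 at a log2 change of -0.35. Over all 12 libraries 10 actin genes, 3 YAP targets, 5 integrin genes, 3 cadherins, 3 junction genes and 4 tetraspanins rose, and without dTAG47 replicate 2, 8 YAP targets, 6 junction genes and 4 tetraspanins did.

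Secretory and lysosomal genes rose more often than they fell. Lysosomal hydrolases and membrane proteins gave 15 risen and 2 fallen of 42, with the protease cathepsin B (CTSB) at 459 ± 18.4 CPM with dTAG47 and 364 ± 7.83 CPM in DMSO, acid sphingomyelinase (SMPD1) at 25.8 ± 2.502 CPM with dTAG47 and 16.9 ± 1.21 CPM in DMSO and FUCA1 and CD63 up by 0.44 and 0.27. COPI, COPII and SNARE genes gave 17 and 3 of 69, led by the COPII coat gene SEC24D (0.38). ER folding and unfolded protein response genes gave 10 and 2 of 32, led by the chaperone cofactor DNAJB9 (0.53). RAB GTPases (11 and 4 of 48), the vacuolar ATPase (5 and 3 of 20), N-glycosylation (7 and 6 of 44) and ubiquitin ligase adaptors (25 and 28 of 147, TRIM14 at -0.63) held genes of both directions. With the spread over all 12 libraries 4 lysosomal, 1 of the coat and SNARE and 2 of the ER genes rose.

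Innate immune genes rose more often than they fell. Complement and coagulation gave 13 risen and 3 fallen of 25. The central complement component C3 had 30.2, 29.7 and 24.6 CPM in the dTAG47 libraries, against 17.3, 17.1 and 16.1 CPM in the DMSO libraries, a log2 change of 0.75 ± 0.08 (edgeR adjusted p = 8.52e-06), and C1RL and the C1 inhibitor gene SERPING1 rose by 0.81 and 0.45. C1QBP, a mitochondrial matrix protein despite its name, is a member that fell (314 ± 1.46 CPM with dTAG47 and 446 ± 15.2 CPM in DMSO). Apolipoproteins L and innate effectors rose in 9 of 16 cases and none fell: APOL2 had 13.2, 13.3 and 12.8 CPM in the dTAG47 libraries, against 7.601, 6.596 and 6.15 CPM in the DMSO libraries, TMEM173 is described above, and the cytidine deaminase APOBEC3F rose by 0.49. Of 29 interferon-response genes 10 rose and 2 fell (median 0.32), STAT2, a transducer of type I interferon, with 30.1, 31.3 and 28.7 CPM in the dTAG47 libraries, against 20.2, 19.02 and 18.98 CPM in the DMSO libraries, and IFI6 and UBE2L6 by 0.55 and 0.42. NF-kappaB targets and cytokines gave 8 and 3 of 24, with the urokinase gene PLAU at 0.35. Over all 12 libraries 5, 5, 6 and 0 members of these lists rose, and 5 of the apolipoprotein L list and 5 of the NF-kappaB list did without dTAG47 replicate 2.

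Signalling lists moved in both directions, often with opposite changes of related genes. Cyclic nucleotide enzymes rose in 14 and fell in 7 of 42 cases: the anchor AKAP1 had 50.4, 51.8 and 48.2 CPM in the dTAG47 libraries, against 80.98, 77.4 and 81.4 CPM in the DMSO libraries, while PRKACA, a catalytic subunit of protein kinase A, rose by 0.34. Receptor tyrosine kinases gave 10 risen and 7 fallen of 31, with FGFR4 at 34.2 ± 2.29 CPM with dTAG47 and 52.9 ± 1.63 CPM in DMSO, the collagen receptor DDR2 at 238 ± 4.76 CPM with dTAG47 and 179 ± 5.17 CPM in DMSO and EGFR at 316 ± 3.45 CPM with dTAG47 and 259 ± 5.94 CPM in DMSO. Dual-specificity phosphatases, Sprouty and Spred genes gave 5 and 6 of 25. DUSP2, a nuclear MAP kinase phosphatase, had 12.7, 10.8 and 13.1 CPM in the dTAG47 libraries, against 28.3, 24.9 and 28.9 CPM in the DMSO libraries, a log2 change of -1.17 ± 0.08 (edgeR adjusted p = 5.00e-07), and DUSP7 fell with a log2 change of -0.67. In the WNT pathway (9 and 6 of 43) WNT2B rose (461 ± 14.01 CPM with dTAG47 and 335 ± 3.43 CPM in DMSO), whereas WNT10B, DVL1 and AXIN1 fell with log2 changes of -0.71, -0.61 and -0.54. Notch and Hedgehog genes fell in 10 and rose in 3 of 28 cases, among them the receptor NOTCH1 (-0.37), its ligand JAG2 (-0.54) and HES7 (-0.64). TGF-beta and BMP (6 and 3 of 40) included the latent binding proteins LTBP2 (0.40) and LTBP1 (0.29) and the receptor BMPR2 (0.40) upward and TGFB1 (-0.27) downward. With the spread over all 12 libraries the risen and fallen counts were 4 and 2 for cyclic nucleotide enzymes, 1 and 1 for receptor tyrosine kinases, 3 and 3 for dual-specificity phosphatases, 2 and 4 for WNT, 0 and 4 for Notch and Hedgehog and 2 and 0 for TGF-beta and BMP.

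Phospholipases C and diacylglycerol kinases gave 9 risen and 6 fallen of 33, PRKCA, a conventional protein kinase C, rising by 0.45. Potassium channels rose in 17 and fell in 6 of 53 cases, and calcium, sodium and TRP channels in 13 and 5 of 46, with TRPM4 at 18.97 ± 1.54 CPM with dTAG47 and 11.6 ± 1.597 CPM in DMSO. Axon guidance genes rose in 14 of 56 cases and fell in 2, the semaphorins SEMA4F, SEMA3A and SEMA4B by 0.58, 0.44 and 0.48. Synaptic and neurosecretory genes gave 11 and 6 of 36, VGF with 219, 213 and 203 CPM in the dTAG47 libraries, against 153, 149 and 131 CPM in the DMSO libraries. Cilia genes (17 and 4 of 83), tubulins and microtubule-associated proteins (11 and 5 of 47), GPCRs (13 and 11 of 85), the insulin-like growth factor system (4 and 3 of 20) and BCL2, caspase and death receptor genes (9 and 11 of 42) completed the signalling and structural lists. In that last list APAF1, the scaffold of the apoptosome, rose by 0.42, while BID and BBC3, which encodes PUMA, fell with log2 changes of -0.36 and -0.43. Over all 12 libraries 4 phospholipase C and diacylglycerol kinase genes, 5 potassium channels, 2 calcium, sodium and TRP channels, 4 axon guidance, 3 synaptic, 4 cilia, 3 tubulin, 4 GPCR, 1 insulin-like growth factor and 4 BCL2 and death receptor genes rose, and 3 of that last list fell.

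Transcription factor families were mostly near the background of 19.9% fallen and 16.5% risen genes. Among clock genes, which encode the transcriptional loop of the daily rhythm, the members called were all lower. Circadian clock genes fell in 6 of 19 cases and none rose, and the falls took in all 3 period genes. PER1 had 87.2, 88.02 and 80.1 CPM in the dTAG47 libraries, against 109, 108 and 119 CPM in the DMSO libraries, PER3 had 92.1, 92.5 and 89.5 CPM in the dTAG47 libraries, against 114, 118 and 116 CPM in the DMSO libraries, and PER2 and NR1D1, the repressor REV-ERB alpha, fell with log2 changes of -0.32 and -0.62. The list's median was nonetheless 0.04, and its other members did not pass the test. Nuclear receptors gave 6 fallen and 1 risen of 24, NR4A1 by -0.54, ESRRA by -0.54 and RARA by -0.34. KLF and SP factors gave 6 and 1 of 18, KLF15 at 3.71 ± 0.296 CPM with dTAG47 and 7.298 ± 0.339 CPM in DMSO, and bHLH and ID factors 7 and 1 of 33. Homeobox factors (15 risen and 7 fallen of 71), FOX, SOX and GATA factors (6 and 5 of 39, SOX8 at -0.86) and ETS, AP-1 and ATF/CREB factors (11 and 7 of 53, FOSL1 at -0.44) went both ways. The largest family, 396 ZNF zinc finger genes, had 55 risen and 60 fallen members, both shares below the background. With the spread over all 12 libraries the fallen counts were 1 for the clock, 4 for nuclear receptors, 3 for KLF and SP factors and 3 for bHLH and ID factors, and 4 homeobox, 4 ETS, AP-1 and ATF/CREB and 5 ZNF genes rose.

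Genes with a MYC region at a start site fell more often than others. MYC regions are the 1068 places with a ChIP-seq peak in both DMSO libraries of DTMYC cells at 4 h, and 1051 tested genes had a region within 1000 bases of an annotated start site. Of these 53.6% fell and 5.90% rose, with a median log2 change of -0.17, whereas of the 11248 annotated genes with no such region 16.98% fell and 17.9% rose. Region genes were more abundant, with a median of 87.7 CPM against 29.2 CPM in the others, so the comparison was made within expression quintiles. In the highest quintile 62.0% of 482 region genes fell, against 26.8% of 2018 others, and in the third quintile 54.4% of 182, against 18.6% of 2320. Seen from the response, 22.8% of fallen genes, 2.99% of risen genes and 8.55% of all tested genes had a region. Among genes that fell at least 1.5-fold the share was 12.4%, and DDN, TERT, MATK and NEFH are among those with no region in both libraries. This share was not matched for level, and the large falls had a median of 6.78 CPM. Few genes at low level had a region, 39 beside 2305 without in the lowest quintile and 91 beside 2364 in the second. A region call depends on the depth of the ChIP libraries, which had 4010 and 1519 peaks, and that depth is unknown.

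The E-box itself was read from promoter sequence. CACGTG, which is its own reverse complement, occurred in the 250 bases before the annotated RefSeq start in 246 of 2050 fallen genes, in 101 of 1684 risen genes (5.998%), in 9.11% of all tested genes with a promoter sequence and in 6.49% of all RefSeq promoters (10027 tested genes matched). Within genes that had a MYC region the shares were close, with 53.5% fallen among 157 genes with the motif and 54.0% among 715 without. Among genes with no region 21.3% of 747 with the motif fell and 12.2% rose, whereas of 8277 without it 16.9% fell and 18.5% rose. The promoters of IMP4 and SLC7A5 are shown by a rule made after the values were seen. Among the fallen genes considered that have both a MYC region and the motif, IMP4 and SLC7A5 had the smallest edgeR adjusted p. Part of the genome was left out before this ranking, so the rule does not cover all fallen genes. Capitals mark CACGTG, and each run reads 5′ to 3′ up to the base before the start (RefSeq, GRCh38.p14).
IMP4 (chr2:130342647-130342896, plus strand): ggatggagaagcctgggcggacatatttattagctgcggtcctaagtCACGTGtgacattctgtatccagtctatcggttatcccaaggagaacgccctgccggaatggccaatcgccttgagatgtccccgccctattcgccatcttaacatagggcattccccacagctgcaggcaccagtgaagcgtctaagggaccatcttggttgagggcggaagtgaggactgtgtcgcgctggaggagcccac
SLC7A5 (chr16:87869508-87869757, minus strand): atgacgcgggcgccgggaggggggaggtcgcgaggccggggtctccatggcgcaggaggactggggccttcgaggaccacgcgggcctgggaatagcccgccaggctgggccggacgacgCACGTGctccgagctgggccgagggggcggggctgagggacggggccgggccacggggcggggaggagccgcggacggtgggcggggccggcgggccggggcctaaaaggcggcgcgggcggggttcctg

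The motif and its neighbours are shown for further fallen genes chosen by the same rule, 30 bases each, to let the flanks be compared. They encode DCTPP1, a pyrophosphatase that clears dCTP, USP36, a nucleolar deubiquitinase, the TFIID subunit TAF4B, the mitochondrial chaperone HSPD1, the exosome subunit EXOSC5, DHODH of pyrimidine synthesis and the nucleolar factors PWP1 and EBNA1BP2.
DCTPP1 (chr16:30429801-30429830, minus strand): gcgttttggggagggttcctcCACGTGgtc
USP36 (chr17:78840824-78840853, minus strand): gcgtcgcggtgaCACGTGtgtgaggcgccg
TAF4B (chr18:26226250-26226279, plus strand): gcttgcccctccCACGTGataggtttctgg
HSPD1 (chr2:197500345-197500374, minus strand): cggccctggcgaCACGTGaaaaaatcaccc
EXOSC5 (chr19:41397431-41397460, minus strand): taaacgctaagcCACGTGcggacgcccagg
DHODH (chr16:72008573-72008602, plus strand): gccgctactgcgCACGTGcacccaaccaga
PWP1 (chr12:107685652-107685681, plus strand): cccagaccagccCACGTGgattcctcgccc
EBNA1BP2 (chr1:43172790-43172819, minus strand): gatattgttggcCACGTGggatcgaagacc
The log2 changes of these genes were -0.63 for DCTPP1, -0.55 for USP36, -0.68 for TAF4B, -0.44 for HSPD1, -0.61 for EXOSC5, -0.55 for DHODH, -0.40 for PWP1 and -0.49 for EBNA1BP2. The bases on either side of the motif differed between the promoters, and its place varied from 9 to 237 bases before the start over the 10 genes of the rule.

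Nascent transcription had moved in the same direction at 4 h. PRO-seq counts engaged RNA polymerase, and its gene body counts come from other libraries of DTMYC cells (2 with dTAG47 and 2 in DMSO) taken at 4 h. The log2 ratio of gene body signal, dTAG47 over DMSO, was below 0 in 91.5% of the 2304 fallen genes with enough reads, in 9.19% of 1927 risen genes and in 47.8% of all 10804 such genes, with medians of -0.22, 0.18 and 0.01. For TERT it was -1.08, for MATK -1.18, for NEFH -1.04, for DUSP2 -1.31 and for IMP4 -0.75, beside 24 h mRNA log2 changes of -1.18, -1.19, -1.07, -1.17 and -0.69. Other genes, singled out after their values were seen, differed between the assays. DNAJB9 and IGFBP3 rose in mRNA but had gene body ratios of -0.42 and -0.63, and MMP17 and HES6, with mRNA log2 changes of -1.27 and -0.80, had ratios of -0.26 and -0.26. These ratios are a description with 2 libraries a group, and no test was made of them here.

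**Figure D5:**
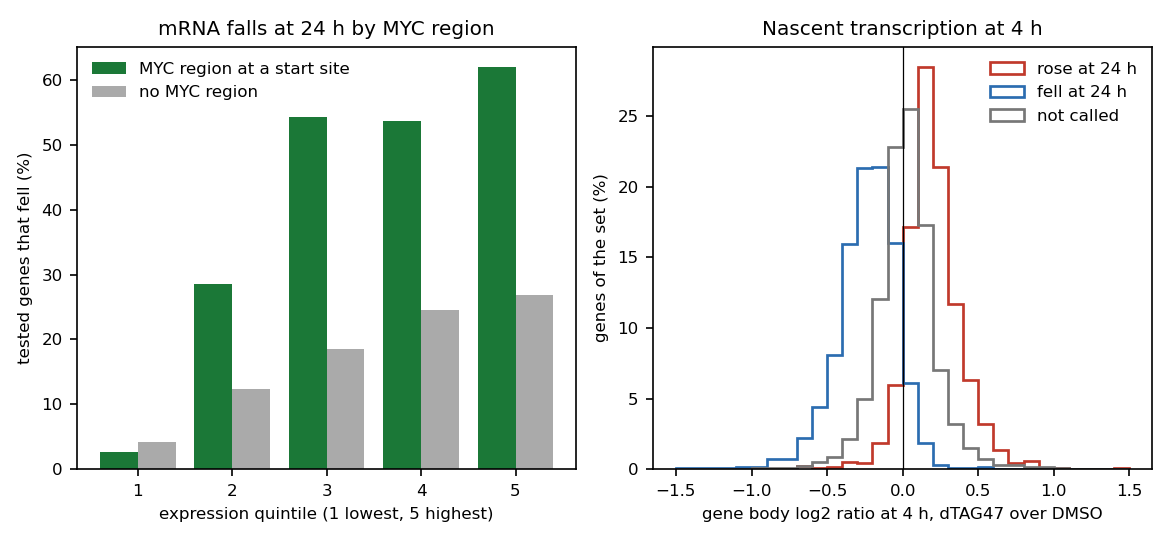
Left, share of tested genes that fell at 24 h in each expression quintile, for genes with a MYC region at a start site (green) and without (grey); right, distribution of the PRO-seq gene body log2 ratio at 4 h, dTAG47 over DMSO, for genes that rose, fell or were not called in mRNA at 24 h (values beyond 1.5 are drawn in the end bins). Green exceeds grey in every quintile but the lowest, which has 39 region genes, and the fallen and risen genes lie on opposite sides of 0.

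Parental cells show what the compound does without its target. No gene passed in parental cells (edgeR, 13046 tested, 0% called), with 881 genes at an unadjusted p under 0.05 and 33 called by DESeq2. With the replicate number as a block 61 rose and 30 fell. The parental libraries varied more, with a coefficient of variation of 0.158, and parental DMSO replicate 3 decided this count: without it 966 genes rose (7.35%) and 920 fell (7%). The median parental log2 change of the genes that fell in DTMYC cells was -0.06, and of those that rose -0.03. Without parental DMSO replicate 3, 356 of the fallen and 284 of the risen DTMYC genes were called in parental cells in the same direction, and 81 and 89 in the opposite direction.

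The difference of responses, DTMYC minus parental, passed for 159 genes (1.19% of 13401 tested), 80 higher and 79 lower. Of these, 77 were DTMYC risen genes and 74 DTMYC fallen genes, each with the sign of its DTMYC change. DDN, NEFH, TERT, MATK, ACTL8, MYBBP1A, PLCB2, PDGFB, LGALS1, MAGED2, TMEM173 and KIAA0319 were among them, with edgeR adjusted p of the difference from 0.00523 to 0.0427. These calls rest on the full set of libraries. Without any one DTMYC library 12 to 28 genes passed, and without parental dTAG47 replicate 1, 2 or 3 it was 12, 5 and 14, with 2 to 6 of the 12 genes just named among them. Without parental DMSO replicate 2 the count was 549, by DESeq2 585, with RLE size factors 63, without the low-count filter 102 and with the replicate block 263. In the fit of all libraries HES6 and MAP1A did not pass, and their parental log2 changes of -0.55 and 0.47 had the sign of the DTMYC change. Without parental DMSO replicate 3 the difference passed for 1122 genes in the higher direction (8.3%) and 1295 in the lower (9.58%), 744 of them DTMYC risen and 855 DTMYC fallen genes of matching sign, and 25 and 5 of opposite sign.

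By list, few members passed in the fit of all libraries: the response was lower in DTMYC cells for 4 ribosome biogenesis genes, 1 helicase and 1 tRNA modification enzyme and higher for 3 complement, 2 apolipoprotein L and innate, 2 YAP and TEAD and 1 actin gene, and it passed for 0 splicing factors, 0 ribosomal proteins, 0 interferon genes, 0 of the protease list, 0 glutathione genes and 1 matrix gene, which was lower. Other lists had counts of similar size in that fit. The WNT pathway had 3 genes higher, and amino acid transporters and hypoxia genes each had 1 higher and 3 lower. The insulin-like growth factor system had 2 higher and 1 lower, and clock genes and nuclear receptors each had 2 lower. The counts that follow come from the setting that gave the most calls. Without parental DMSO replicate 3, 41 of 57 ribosome biogenesis genes, 17 of 46 helicases, 15 of 71 splicing factors and 12 of 52 tRNA modification enzymes responded lower in DTMYC than in parental cells. Of the finished ribosome 17 of 77 cytosolic and 21 of 74 mitochondrial ribosomal protein genes fell in parental cells as well. Over these lists the difference was lower for 4 and 10 genes and higher for 2 and 2. It was higher for 1 helicase. On the rising side the difference was higher for 13 of 66 matrix genes, 13 of 45 in the protease list, 11 of 25 complement and coagulation genes, 8 of 16 apolipoprotein L and innate genes, 9 of 29 interferon genes and 19 of 86 actin genes. It was lower for 4 matrix, 3 protease-list, 3 interferon and 5 actin genes. For the complement and apolipoprotein L lists 0 members were lower. Glutathione and NRF2 genes fell in parental cells in 13 of 38 cases, and the difference was higher for 13. Of YAP and TEAD targets 8 of 28 rose in parental cells too, and the difference was higher for 5 and lower for 4.

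Base composition and transcript length moved with the response. From the lowest to the highest quintile by GC content of the longest annotated transcript the share of fallen genes was 13.2% and 26.4% at these ends and that of risen genes 18.7% and 12.8%. From the shortest to the longest quintile by length the fallen share was 21.5% and 14.2% and the risen share 10.2% and 25.5%. The 4 h gene body ratio had a median of -0.05 in the shortest and 0.06 in the longest quintile. With offsets for GC content and length 2540 genes rose and 3465 fell, and 4460 of the 4593 called genes were called again. The part of composition and length in the changes of single lists was not otherwise tested.

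Some named genes share sequence with others, so that their reads are uncertain without strand. Among those that overlap another annotated gene along part of their exons are MRPL12, DDX58, SLC25A32, TAGLN, WNT2B, CARM1, UROD, SETD6, DDN, NEFH, CNTNAP1 and DOC2A. KRT8, HK2, TPM4, UPK3B, SULT1A1, SLC7A5, RPL14, SNRPA1, APOBEC3F, TAGLN, LPP and EXOSC6 are among those with matches elsewhere in the genome. These matches have 95% identity or more over 200 bases or more. Neither set of names is complete.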

How the data were processed

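RNA-seq was made after ribosomal RNA depletion, per the labels' protocols. The authors deposited unnormalised gene-level read counts as whole numbers. Tools named in the submitters' processing notes are cutadapt, Bowtie2, MACS2, DiffBind, STAR, featureCounts and DESeq2, with build hg19. Which step used which tool, and with what strand setting, is not given in the sources used here. PRO-seq values are gene body counts as deposited. MYC ChIP-seq peaks were called for each sample by the authors, and of the deposited lists the peak score was read but only positions were used.

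The 6 DTMYC libraries were fitted alone with edgeR 4.0.16 (R 4.3.3): filterByExpr, TMM and the two-sided quasi-likelihood F-test, with adjustment after Benjamini and Hochberg over all 12594 genes and a threshold of 0.05. CPM uses effective library sizes. The parental libraries were fitted alone, and the difference of responses is the interaction in a fit of all 12. Replicate numbers were not used as a block. On simulated counts over 12504 genes, 66, 65 and 66 genes were changed 1.25-fold, 1.5-fold and 2-fold. The test for DTMYC dTAG47 against DMSO recovered 59.1%, 84.6% and 95.5% of them in that order, and 6.55% of its calls were false. In the data 36.5% of genes were called, so recovery and the false share may differ there. PRO-seq log2 ratios took genes with at least 50 counts and a pseudocount of 0.1 CPM. Start sites and GC content came from GENCODE v44 lifted to GRCh37, the same build as hg19 (94.7% of entries matched), and promoter sequence from RefSeq GRCh38.p14. Counting error alone limits precision at low counts.

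The named genes are the 3 largest rises and 3 largest falls in each quintile (adjusted p under 0.05, no overlap of groups, at least 1 CPM on average), up to 4 members of each of 75 lists with the smallest adjusted p (or, in lists with no call, the 2 members at the highest level), MYC and MAX. Members, lists and the rule were chosen with earlier results of these data known, and the lists give no independent support. Alternatives were DESeq2 1.42.0, RLE size factors, no filter, the replicate block, no patch entries, each replicate left out, all 12 libraries, and offsets for GC content and length. ATAC-seq and the ChIP-seq of dTAG47 samples were not used here. A gene that met the rule, and a list, are not reported here.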

Additional observations from a re-analysis of the deposited data

Results flagged for a closer look

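The response to dTAG47 differed between DTMYC and parental cells, by a test of the difference itself, for 159 genes (edgeR interaction, adjusted p under 0.05, 13401 tested), of which 80 were higher and 79 lower in DTMYC cells. The largest named differences were those of ACTL8, with a log2 change of -1.82 in DTMYC cells and -0.26 in parental cells, SULT1A1, with 1.35 and -0.04, and DDN, with -1.34 and -0.11. SULT1A1 has near-identical copies. No group here has more than 3 samples, so no sample was examined as an outlier within its group.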

How the results depend on the processing

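Among the 306 named genes, none of those called changed direction under the 14 alternatives tried for the DTMYC comparison. MYC, which was not called, ran from a log2 change of -0.02 to 0.05 over them, so its sign was not kept. Of 4284 gene results 4163 kept their side of the threshold and 121 lost the call, 116 of them when the spread was estimated over all 12 libraries. That fit gave 572 risen and 595 fallen genes, 10.3% called in the highest quintile and 5.44% in the lowest; 1158 of its 1167 calls were shared with the 6-library fit. DESeq2 gave 8.02% in the lowest quintile, and 1919 risen and 2326 fallen genes. Leaving out each replicate in turn gave 1369 to 2691 risen genes, 1847 to 2881 fallen genes, 36.999% to 61.1% called in the highest quintile, 7.94% to 13.3% in the lowest, and 391 to 526 genes moved 1.5-fold. Offsets for GC content and length gave 2540 risen and 3465 fallen genes. Parental calls, 0 in the edgeR fit, were 33 by DESeq2, 91 with the replicate block and 0 to 1886 with a replicate left out, the highest without parental DMSO replicate 3. The difference of responses, 159 genes, was 585 by DESeq2, 63 with RLE size factors, 102 without the low-count filter, 263 with the replicate block, and 5 (without parental dTAG47 replicate 2) to 2417 (without parental DMSO replicate 3) with a replicate left out. The cause of these shifts was not tested.

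The check made does not settle whether samples of the same number share more than a number. In DTMYC cells the correlations of their deviations from the group means were 0.133, 0.00107 and -0.0486, and in parental cells 0.356, 0.0388 and 0.402. In neither line was every pair above 0.1. Each parental dTAG47 library correlated best with the DMSO library of its own number. Parental DMSO replicate 2, however, correlated best with dTAG47 replicate 1 (0.293). With the replicate block 2153 genes rose and 2554 fell, and with the block and the GC and length offsets 2541 rose and 3502 fell; the block changed no call of a named gene in the DTMYC comparison. Of 150 list counts 127 moved by more than 1.5 times with all 12 libraries and 40 without dTAG47 replicate 2. The median changed sign under at least 1 alternative for the lists of histone lysine methyltransferases and demethylases, deacetylases and acetyltransferases, recombination, sphingolipids, glutathione, amino acid transporters, proteasome, vacuolar ATPase, dual-specificity phosphatases, ZNF factors and FOX, SOX and GATA factors. Depth limits the lowest quintile, where the median standard error was 0.242.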
